A study of Homo sapiens with 6 samples.

Results

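The genes described here are 10 immediate early transcription factors, chosen by symbol from the 35793 genes of the deposited table: EGR1, EGR2, EGR3, FOS, FOSB, FOSL1, FOSL2, JUN, JUNB and ATF3. All 10 were found. Their RNA was measured on day 15 of differentiation in heart muscle cells made from human induced pluripotent stem cells. The wild-type group was WTC11, an established stem cell line, used unedited, and the STK25 knockout group was a WTC11 derivative in which both STK25 copies had been disrupted with CRISPR/Cas9. Each genotype had 3 libraries, which the labels call biological replicates without saying whether each came from its own differentiation, so p-values measure the spread between these samples. Both groups were kept in RPMI 1640 with B27 and the labels list no treatment, which does not by itself show that the cells were unstimulated. The knockout is 1 line, and an effect of the edit cannot be told apart from any other difference between the lines.

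Immediate early genes are transcribed within minutes of a signal from transcription factors that are already present, and their mRNAs are short-lived. EGR1, EGR2 and EGR3 are zinc finger proteins that bind GC-rich sites. The FOS proteins carry a leucine zipper and pair with JUN or JUNB to form AP-1, while ATF3 is a related zipper protein induced by stress. In heart muscle these genes are known as early markers of growth signals, stretch and stress.

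The promoters of the members on which the results turn are shown first, since immediate early transcription is known to start from serum response and cyclic AMP response elements close to the gene. RefSeq's table for GRCh38.p14 held 8 of the 10 members with 11 transcript starts. The 250 bases before each start were searched on both strands for the CArG box, for the full cyclic AMP element TGACGTCA and its core TGACG, for the AP-1 element TGACTCA, for the JUN and ATF element TGACATCA, for the EGR element GCGNGGGCG, for the ETS core CCGGAA and for the TATA box as TATAAA. A TGACGTCA match also holds TGACG. Capitals mark matches, with the gene's own strand printed 5′ to 3′, at chr5:138465229-138465478 (plus strand) for EGR1, chr1:58784048-58784297 (minus strand) for JUN, chr1:212565157-212565406 (plus strand, the upstream of 2 starts) for ATF3, chr19:12791236-12791485 (plus strand) for JUNB and chr14:75278578-75278827 (plus strand) for FOS.
EGR1: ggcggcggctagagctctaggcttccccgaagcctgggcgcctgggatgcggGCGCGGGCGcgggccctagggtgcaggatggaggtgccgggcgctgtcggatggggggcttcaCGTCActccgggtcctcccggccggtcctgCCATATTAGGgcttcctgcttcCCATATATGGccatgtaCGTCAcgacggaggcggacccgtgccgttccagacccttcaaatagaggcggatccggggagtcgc
JUN: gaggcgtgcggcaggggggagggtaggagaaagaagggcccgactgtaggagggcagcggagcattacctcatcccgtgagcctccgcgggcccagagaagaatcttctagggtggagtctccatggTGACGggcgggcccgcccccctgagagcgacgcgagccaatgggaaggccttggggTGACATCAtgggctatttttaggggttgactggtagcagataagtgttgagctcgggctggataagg
ATF3: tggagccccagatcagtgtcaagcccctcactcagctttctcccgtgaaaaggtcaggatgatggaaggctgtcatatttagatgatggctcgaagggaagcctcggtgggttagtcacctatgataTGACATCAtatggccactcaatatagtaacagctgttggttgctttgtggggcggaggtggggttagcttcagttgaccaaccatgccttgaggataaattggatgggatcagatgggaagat
JUNB: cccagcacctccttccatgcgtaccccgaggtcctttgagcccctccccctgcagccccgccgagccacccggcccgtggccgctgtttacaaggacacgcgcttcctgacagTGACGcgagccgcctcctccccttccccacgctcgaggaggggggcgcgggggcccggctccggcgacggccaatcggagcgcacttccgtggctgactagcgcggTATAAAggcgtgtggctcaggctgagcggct
FOS: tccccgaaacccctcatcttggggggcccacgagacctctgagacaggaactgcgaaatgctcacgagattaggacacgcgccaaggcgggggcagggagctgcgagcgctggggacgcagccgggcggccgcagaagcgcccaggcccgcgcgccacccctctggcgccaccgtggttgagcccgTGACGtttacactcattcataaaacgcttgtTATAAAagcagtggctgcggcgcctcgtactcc

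The EGR1 window held 2 CArG boxes, the binding element of serum response factor, at 105 to 96 and 83 to 74 bases before the start. A CArG box occurred in 1.16% of 35116 such windows. EGR1 also had TGACG, the core of the cyclic AMP response element, at 135 to 131 and 66 to 62 bases before the start, both on the opposite strand. It was the 1 member with a GCGNGGGCG match, the letters that EGR proteins bind, which 8.41% of windows held. JUN and ATF3 shared TGACATCA, at 67 to 60 bases before the start in JUN and 123 to 116 in ATF3. That element is known to bind JUN and ATF proteins and was in 2.37% of windows. TGACG was found in 7 members, EGR1, EGR2, FOS, FOSB, FOSL2, JUN and JUNB, and in 21.2% of all windows. The full TGACGTCA (1.65% of windows) and TGACTCA (4.2%) were in 0 members. The CArG box was in 2 members, EGR1 and EGR2, and not in the FOS window. An absence says only that these letters are not in these windows, and sequence farther upstream was not searched. EGR3 and FOSL1 had no entry and were not searched. TATAAA, in 10.7% of windows, lay 33 to 28 bases before the start in FOS, 30 to 25 in FOSB and 31 to 26 in JUNB. In ATF3 the same letters lay 230 to 225 bases before start 2, much farther from the start than in FOS, FOSB and JUNB. Only the 2 listed ATF3 starts were searched, and any other start of that gene was not. Gene totals do not show which ATF3 start was used.

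**Figure D1:**
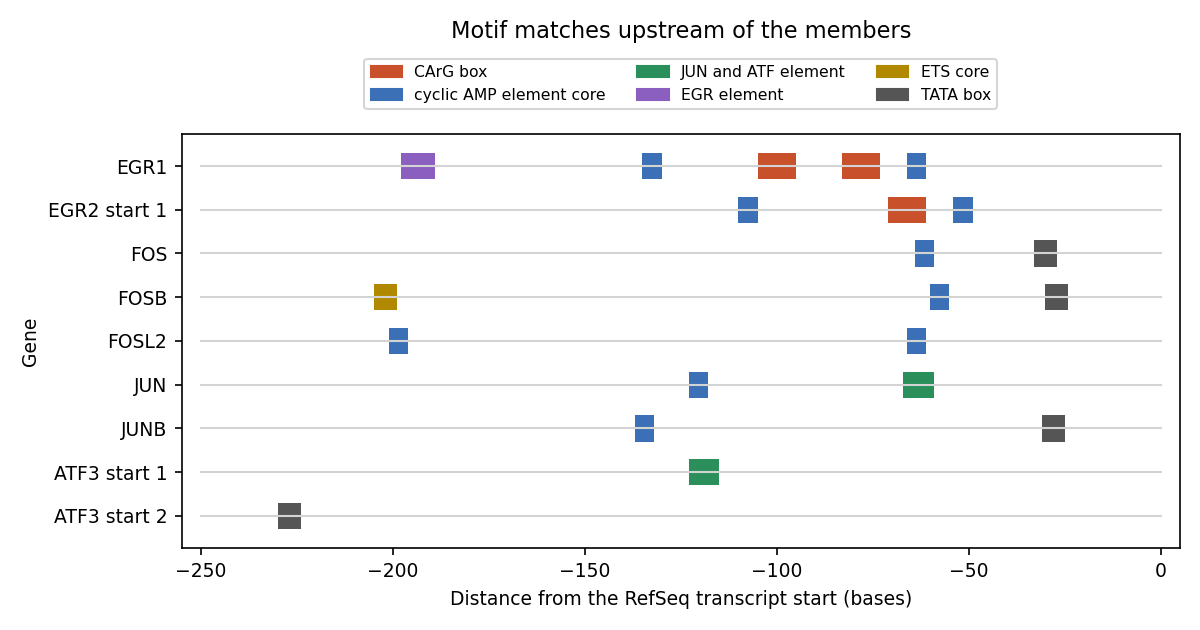
Positions of motif matches (coloured blocks) in the 250 bases before RefSeq transcript starts, with distance from the start in bases on the x axis and 1 row per start. The cyclic AMP, JUN and ATF, EGR and ETS elements are those named in the text. In these windows EGR1 and EGR2 hold the CArG boxes, and JUN and ATF3 hold TGACATCA. Sequence farther upstream was not searched, and EGR3 and FOSL1 had no entry. The other 2 EGR2 starts had no match and are not drawn.

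The libraries held from 22443904 to 53224112 reads, and 1 read was worth from 0.638 to 1.51 normalized counts. STK25, the check of the labels, had between 6774 and 8874 normalized counts in wild-type libraries against 3434 to 3906 in the knockout (limma adjusted p = 0.00903). The STK25 call was lost without wild-type replicate 1 (limma adjusted p = 0.0611) and with the replicate block (0.0684). FARP2 overlaps STK25 on the opposite strand, and the gene total does not show the edit itself. Of all tested genes 12.8% had a limma adjusted p under 0.05, 5.97% higher and 6.79% lower in the knockout. Wild-type replicate 2 and knockout replicate 1 stood apart from the other libraries on the second principal component, which carried 24.1% of the variance. No batch is named in the labels, and within-batch values could not be computed. All 10 cardiomyocyte markers passed the filter, and 1 of 10 was called, lower. Their summed level was between 1258400 and 1570110 in wild-type libraries against 1818900 to 3330220 in the knockout. Such sums mostly follow their most abundant genes. MYL7 alone, which was not called, went from a mean of 541523 in the wild type to 1481020 in the knockout. Of the 10 fits 6 were higher and 4 lower in the knockout. None of the 10 was at 3 reads or fewer in every library. Markers of other cells moved with genotype too. Of the smooth muscle markers, which developing cardiomyocytes also express, 5 of 6 were called higher, with sums from 83548 to 96189.5 against 495646 to 543358. Fibroblast markers had 4 of 9 called higher and 1 lower, with overlapping sums from 12981 to 26549.8 and from 8414 to 16844. Neural markers had 3 of the 5 tested (of 7) called, all higher, with sums from 68.3 to 119.6 against 467 to 827. Epicardial markers had 1 of the 5 tested (of 6) called, higher (129.9 to 203 against 519.9 to 652, MSLN at most 3 reads in every library). Pluripotency markers had 1 of the 4 tested (of 6) called, higher (906 to 984 against 3091 to 4462). That gene, TDGF1, made up most of the rise in the sum, with means of 560 in the wild type and 3516 in the knockout. Endoderm and liver markers had 1 of the 3 tested (of 7) called, lower (1663 to 3008 against 1197 to 1252, FOXA2 at most 3 reads). Endothelial markers had 0 of the 4 tested (of 8) called with limma, 1 at an unadjusted p under 0.05 and 0 with edgeR or DESeq2, with overlapping sums from 174 to 478 and from 418 to 584 and at most 3 reads of CDH5, TIE1 and ERG. Heat shock genes, taken as signs of handling stress, had 2 of 11 called, both higher, with sums from 204377 to 261664 against 298308 to 433441. Their fits were higher in the knockout for all 11 and lower for 0, with a median log2 fold change of 0.71 (all genes 0.0052). The part of these differences in the results on the members was not tested.

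In STK25 knockout cardiomyocytes EGR1, JUN and ATF3 were lower than in the wild type, and JUNB stood apart from them with higher values in every knockout library. EGR1 was at 14.7% of its wild-type mean, ATF3 at 47.1% and JUN at 53.5%. Among the 8 members that passed the filter of a mean of at least 10 normalized counts, 3 had a limma adjusted p under 0.05 (background 12.8%), all 3 lower (background 6.79%), and 0 were called higher (background 5.97%). At an unadjusted limma p under 0.05 there were 5, of which JUNB was the 1 that was higher (background 4275 of 15536 tested genes). edgeR on the recovered reads also called 3 (background 1864 of 15536). DESeq2 called 4, adding JUNB (background 3210 of 15536). The libraries of the genotypes did not overlap in 5 of the 8 (background 33.4%), with the knockout below in 4 (background 17.2%) and above in 1 (background 16.2%). The median log2 fold change of the 8 was -0.66, beside 0.0052 for all genes tested. EGR2 and EGR3 did not pass the filter. In these bulk samples fewer expressing cells and less RNA per cell cannot be told apart.

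**Figure D2:**
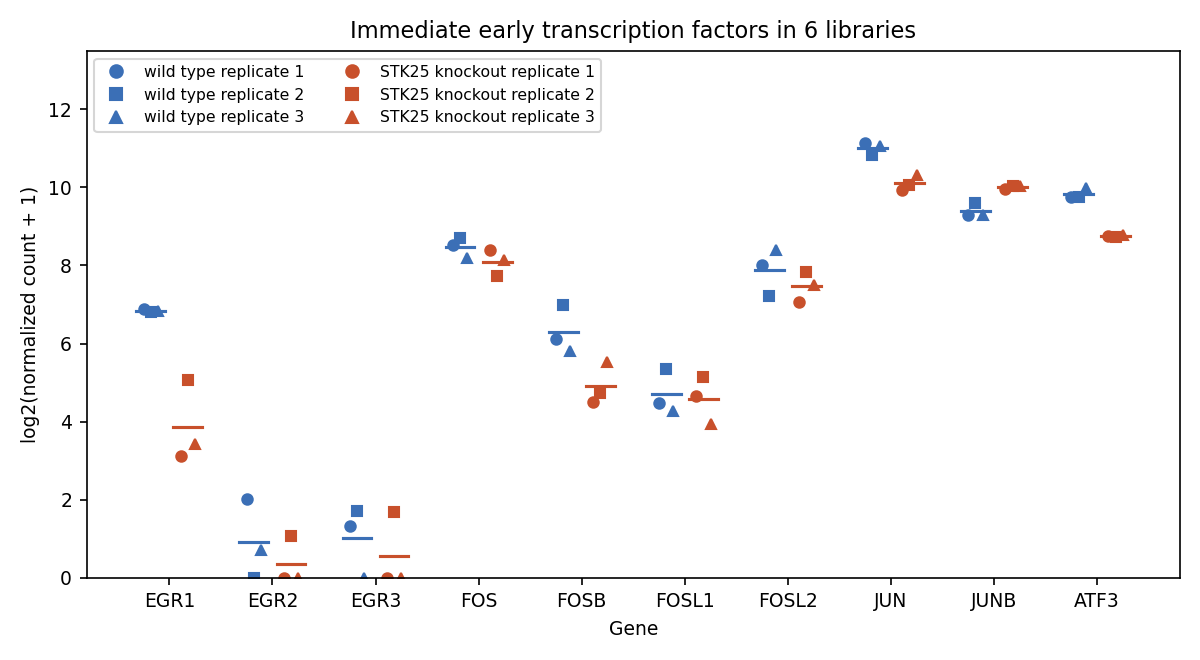
Level of each member as log2(normalized count + 1) on the y axis, with 1 symbol per library (blue, wild type; red, STK25 knockout) and a line at the mean of each genotype. EGR1, FOSB, JUN and ATF3 lie lower in every knockout library, JUNB lies higher, and EGR2 and EGR3 are close to 0 throughout.

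EGR1, a zinc finger factor that links MAP kinase signals to growth genes, lies on the plus strand of chromosome 5 from 138465490 to 138469315 (GENCODE 29, GRCh38; ENSG00000120738.7). Its level was 116, 110.4 and 112 normalized counts in wild-type replicates 1, 2 and 3. In the knockout it was 7.63, 32.3 and 9.78. The wild-type values lay close together, at 113 ± 3.00 (SD, n = 3), while the knockout mean was 16.6 ± 13.7 (SD, n = 3), with replicate 2 above the other 2 and below every wild-type library. On the log2 scale EGR1 fell by 2.97 (SE 0.59, limma adjusted p = 0.0163). A two-sided exact permutation test could not go below p = 0.1 in this design and gave that value for EGR1, as for JUN, ATF3, JUNB and FOSB. EGR1 was a rare transcript, and the knockout values rested on 6, 29 and 11 reads. Exact 95% Poisson intervals, which cover counting error only, ran from 2.80 to 16.6 for knockout replicate 1, from 21.6 to 46.4 for replicate 2 and from 4.88 to 17.5 for replicate 3. Replicate 2 therefore differed from the other 2 by more than counting error. The lowest wild-type bound was 91.8. The call was lost without wild-type replicate 1 (limma adjusted p = 0.0770), wild-type replicate 3 (0.0693) or knockout replicate 3 (0.0622), while the log2 fold change stayed between -3.56 and -2.59 in the 6 fits that each left out 1 library.

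The relatives of EGR1 were close to undetected. EGR2, known for its part in myelination and hindbrain patterning, had 2, 0 and 1 reads in the wild type and 0, 1 and 0 in the knockout. EGR3, which shares the EGR binding site, had 1, 3 and 0 reads in the wild type and 0, 2 and 0 in the knockout. No library exceeded 3 reads of either gene, so no fold is given. Exact permutation p-values were 0.7 for each, and a difference was not detectable at this depth.

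JUN, the classical partner of FOS in AP-1, is a gene of 1 exon on chromosome 1 (minus strand, 58780788 to 58784327). Its level was 2249, 1827 and 2136 normalized counts in wild-type replicates 1 to 3, against 977, 1074 and 1273 in the knockout. Every knockout library was lower than every wild-type library. The means were 2071 ± 218 and 1108 ± 150.4 (SD, n = 3 each). JUN fell by 0.90 on the log2 scale (SE 0.20, limma adjusted p = 0.0237). JUN had at least 769 reads in each library, so counting error was small. The call was lost without wild-type replicate 1 (limma adjusted p = 0.122), wild-type replicate 3 (0.0969), knockout replicate 2 (0.0755) or knockout replicate 3 (0.0570), with log2 fold changes from -1.01 to -0.82.

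ATF3, a stress-induced factor that as a pair with itself represses transcription, lies on the plus strand of chromosome 1 from 212565334 to 212620777. It had 862, 869.8 and 1016 normalized counts in the wild type and 435, 421 and 439 in the knockout. The knockout values lay close together, at 432 ± 9.24 (SD, n = 3) against 916 ± 86.3 (SD, n = 3). ATF3 fell by 1.08 on the log2 scale (SE 0.20, limma adjusted p = 0.0132). The call was lost without wild-type replicate 1 (limma adjusted p = 0.0653), wild-type replicate 3 (0.0693) or knockout replicate 3 (0.0548).

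JUNB, a weaker activator than JUN that can hold JUN in check, was the 1 tested member with a positive fold change. It is a gene of 1 exon on the plus strand of chromosome 19 from 12791496 to 12793315. JUNB was at 627, 778 and 624 normalized counts in wild-type replicates 1 to 3, against 995, 1048 and 1049.6 in the knockout. All 3 knockout libraries were above all 3 wild-type libraries, with means of 1031 ± 30.8 and 676 ± 87.8 (SD, n = 3 each). Its log2 fold change of 0.61 (SE 0.20) missed the threshold (limma adjusted p = 0.0871). DESeq2 put it past the threshold (adjusted p = 0.0226), and so did limma without the 2 libraries that stood apart (0.74, adjusted p = 0.0109). The gene span of HOOK2 overlaps that of JUNB on the opposite strand, and whether strand was used is not stated, so reads from any transcribed stretch that both share could be counted for either. HOOK2 itself had 896, 1058 and 769 normalized counts in the wild type and 414, 256 and 391 in the knockout.

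The FOS proteins need a JUN partner to bind DNA. FOS, on the plus strand of chromosome 14 from 75278774 to 75282230, had 366, 416 and 290.2 normalized counts in the wild type and 336, 211 and 279.9 in the knockout. The genotypes overlapped, and the log2 fold change of -0.38 (SE 0.29) did not pass (limma adjusted p = 0.441). FOSB, known for its stable splice form in neurons, lies on the plus strand of chromosome 19 from 45467995 to 45475179. Its values were 68.0, 126 and 55.5 in the wild type and 21.6, 25.6 and 45.3 in the knockout. They did not overlap, but wild-type replicate 2 was well above the other 2, and the log2 fold change of -1.38 (SE 0.50) did not pass (limma adjusted p = 0.119). ERCC1 overlaps FOSB on the opposite strand, with the same limit as for JUNB.

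FOSL1 and FOSL2 lack the activation domain at the end of FOS. FOSL1 (chromosome 11, minus strand, 65892049 to 65900573) had 21.1, 39.6 and 18.5 normalized counts in the wild type and 24.2, 34.6 and 14.2 in the knockout. Its log2 fold change of -0.12 (SE 0.58, limma adjusted p = 0.924) was smaller than the spread between replicates and turned positive when wild-type replicate 2 (0.20) or knockout replicate 3 (0.20) was left out. FOSL2, on the plus strand of chromosome 2 from 28392448 to 28417312, had 257, 147 and 339 in the wild type and 133, 225 and 181 in the knockout. Its log2 fold change was -0.41 (SE 0.39, limma adjusted p = 0.558). An antisense gene and a gene inside a FOSL2 intron overlap it. Exact permutation p-values for FOS, FOSL2 and FOSL1 were 0.2, 0.4 and 0.8.

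**Figure D3:**
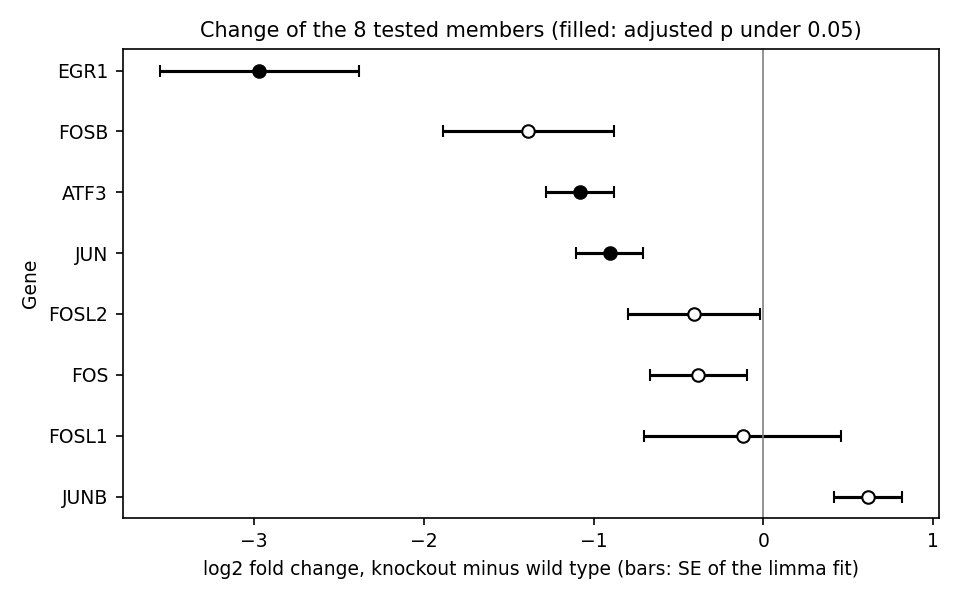
Log2 fold change (knockout minus wild type, x axis) of the 8 tested members with the SE of the limma fit as bars. Filled symbols had an adjusted p under 0.05: EGR1 at -2.97, ATF3 at -1.08 and JUN at -0.90. JUNB, at 0.61, is the 1 member to the right of 0.

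Levels between members were compared as normalized counts per kilobase of the longest protein-coding transcript in GENCODE 29. In the wild type JUN was the most abundant, at 585 ± 61.7 per kilobase (SD, n = 3), then ATF3 at 451 ± 42.5 and JUNB at 372 ± 48.2. FOS (166 ± 29.3), FOSL2 (36.9 ± 14.3), EGR1 (36.0 ± 0.956), FOSB (22.1 ± 10.03), FOSL1 (15.8 ± 6.89), EGR2 and EGR3 followed. The libraries of ATF3 and JUNB overlapped, as did those of FOSL2 and EGR1, of FOSB and FOSL1, and of EGR2 and EGR3. In the knockout JUNB was the most abundant, at 566 ± 16.9, above JUN at 313 ± 42.5, ATF3 at 212 ± 4.55 and FOS at 128 ± 29.002 (SD, n = 3 each), and none of these 4 overlapped the next. EGR1, at 5.28 ± 4.36, came below FOSL2 (26.8 ± 6.84), FOSL1 (14.6 ± 6.09) and FOSB (8.17 ± 3.36), and in that genotype FOSL2 overlapped FOSL1, FOSL1 overlapped FOSB and FOSB overlapped EGR1.

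A ratio of 2 genes within a library does not depend on how libraries were scaled. The ratio of JUN to JUNB normalized counts was 3.59, 2.35 and 3.42 in the wild type and 0.982, 1.03 and 1.21 in the knockout. Every knockout library was below every wild-type library. EGR1 to FOS was 0.318, 0.266 and 0.387 in the wild type and 0.0227, 0.153 and 0.0349 in the knockout, again without overlap. JUN to ATF3 was 2.61, 2.10 and 2.10 in the wild type and 2.25, 2.55 and 2.90 in the knockout, and here the genotypes overlapped. These ratios are descriptions and were not tested, since the members were chosen with earlier results known.

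**Figure D4:**
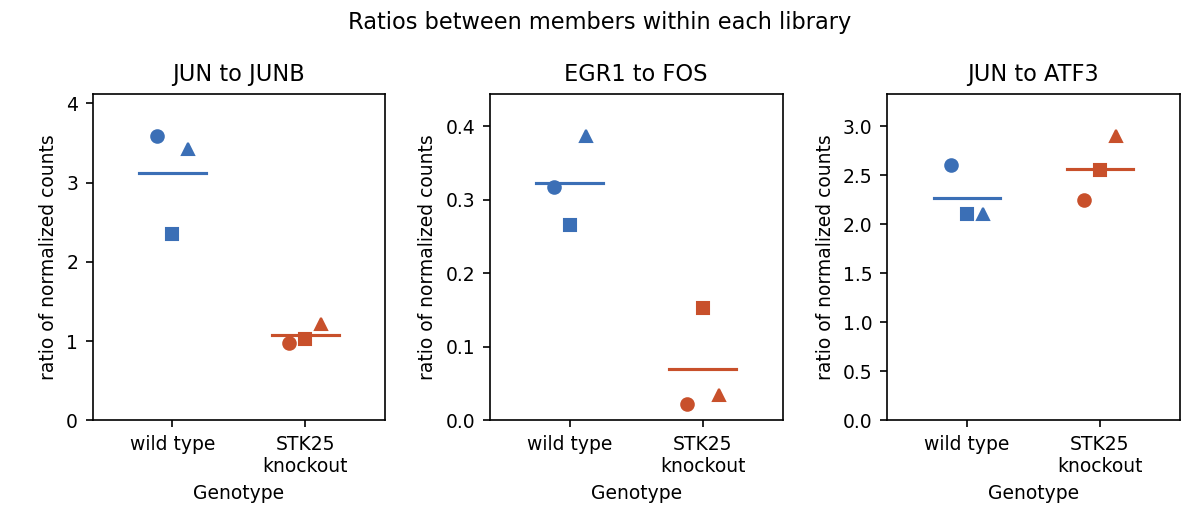
Ratios of normalized counts between pairs of members (y axis, from 0) in each library, by genotype, with a line at the mean. JUN to JUNB is at 2.35 or more in the wild type and 1.21 or less in the knockout, EGR1 to FOS at 0.266 or more and 0.153 or less, and JUN to ATF3 overlaps between genotypes.

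How the members varied together was described by Pearson correlations of log2 values over the 6 libraries, which share depth, culture and genotype. JUN and ATF3 had r = 0.953, JUN and JUNB -0.945, ATF3 and JUNB -0.956, and EGR1 and ATF3 0.905. After genotype means were taken off, the same 4 pairs had 0.212, -0.448, -0.461 and -0.220, and the mean over all pairs of the 8 tested members was -0.079. The genes most like EGR1 over the 6 libraries, members left out, were ADAM15 (r = 0.996), GFY (0.996), ASCC3 (0.995), FAM160A2 (0.994) and PPFIA2 (0.994). GFY had 257, 262 and 223 normalized counts in the wild type and 1.27, 24.5 and 0.889 in the knockout. PPFIA2 had 119, 140.1 and 93.1 against 0, 15.6 and 0. These genes were picked for their likeness to EGR1 in the same libraries.

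Genes around the members were read from 7 lists. In the counts for these lists, rose and fell mean called with a limma adjusted p under 0.05. Of all tested genes 12.8% were called, 5.97% higher and 6.79% lower, and the all-gene median log2 fold change was 0.0052. With equal totals the all-gene median was -0.27, and list medians given for that setting are to be read beside that value. Among 32 other immediate early genes 29 were tested, of which 4 rose and 2 fell, with a median log2 fold change of 0.25. The rises were MYC, a growth factor-induced transcription factor, CCN2, a matrix protein, GADD45B, a growth arrest gene, and ZFP36, which promotes decay of AU-rich mRNAs. MYC had 36.3, 31.2 and 65.1 normalized counts in the wild type and 472, 671 and 669 in the knockout, a log2 fold change of 3.80 (SE 0.37, limma adjusted p = 0.000968). CCN2 had 7401, 5480 and 7303 against 26967, 46067 and 39025. It rose by 2.45 on the log2 scale (limma adjusted p = 0.00126), GADD45B by 1.58 (0.00395) and ZFP36 by 1.13 (0.0221). The falls were BTG2, an antiproliferative gene, at -2.53 (limma adjusted p = 0.00156), and IER5, a nuclear stress response protein, at -1.57 (0.0170). BTG2 had 2673, 1795 and 3179 normalized counts in the wild type and 336, 484 and 481 in the knockout. The median of this list was -0.033 with equal totals, where that of all genes was -0.27. ZFP36 missed the threshold in 4 of 6 leave-one-out fits (limma adjusted p up to 0.0879) and IER5 in 3 of 6 (up to 0.0858).

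Of 14 AP-1 partners and related zipper factors 11 were tested, of which 5 rose and 1 fell, with a median of 0.82 that was 0.49 without knockout replicate 1. MAF had a log2 fold change of 2.03 (limma adjusted p = 0.0423), DDIT3, a factor of the unfolded protein response, of 1.35 (0.0249), MAFG, a small MAF protein, of 1.11 (0.0399) and JDP2, a JUN-binding repressor, of 0.82 (0.0470). When 1 library was left out, 1 to 4 genes of this list were called, 1 when either of wild-type replicates 1 and 3 was dropped, 1 for knockout replicate 3, 2 for knockout replicate 1 and 3 for knockout replicate 2. The list's calls numbered 3 with no filter on low values, 2 with equal upper quartiles, 1 with eBayes without a trend and 1 with the replicate block. JDP2 passed in 0 of 6 leave-one-out fits. JUND, the third JUN protein, was named after its values were seen: its mean was 4759 in the wild type and 3164 in the knockout (log2 fold change -0.59, limma adjusted p = 0.0790).

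Upstream of the members, 0 of the 6 genes for SRF and its cofactors were called with limma, 0 with edgeR and 2 with DESeq2. At an unadjusted limma p under 0.05 there were 2. The median of these genes, 0.32, was 0.037 with equal totals (all genes -0.27). Of 26 MAP kinases and their activated kinases 25 were tested, of which 1 rose and 4 fell. The median of the 25, 0.13, was -0.15 with equal totals (all genes -0.27) and -0.003 without knockout replicate 2. RPS6KA5, a nuclear kinase that acts on histones at immediate early genes, rose from 261, 291 and 226 normalized counts to 806, 1019.8 and 854 (a log2 rise of 1.78, SE 0.23, limma adjusted p = 0.00290), and it passed in all 6 fits without 1 library. The falls were MAPK13 (-1.57, limma adjusted p = 0.0266), MAPK10, a JNK (-1.40, 0.0103), BRAF, a RAF kinase (-1.39, 0.0187), and MAP2K3 (-0.99, 0.0486). Without 1 library the calls in this list numbered from 1 to 4, with no filter on low values 3, with the replicate block 1 and with DESeq2 8. MAP2K3 passed in 0 of 6 leave-one-out fits. BRAF lies on chromosome 7 from 140719327 to 140924928, and the 95 tested genes from 140 Mb to the end of that chromosome had a median of -1.04 with 87.4% lower, so its value moves with its neighbours.

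Among 9 corepressors and mRNA decay factors 0 rose and 2 fell (median -0.50, and -0.27 without knockout replicate 3). NAB1, which represses through EGR proteins, went from 1029, 802 and 1005 normalized counts to 261, 495 and 361 (log2 fold change -1.38, limma adjusted p = 0.0193, lost also without knockout replicate 3). ZFP36L1, a decay factor of the ZFP36 family, fell by 1.01 on the log2 scale (limma adjusted p = 0.00911). Neither was called without wild-type replicate 1 or 3. Genes known as EGR targets had 1 of 9 called, PDGFB, a growth factor (log2 fold change 1.52, limma adjusted p = 0.0342). PDGFB had 78.5, 92.9 and 92.5 normalized counts in the wild type and 159, 299.8 and 341 in the knockout. It was not called with equal totals, and was called in only 1 of 6 fits without 1 library. The median of the EGR targets, 0.13, was -0.15 with equal totals (all genes -0.27). Leaving out knockout replicate 2 or 3 gave -0.18 or -0.010. Of 15 known AP-1 targets 11 were tested, of which 1 rose and 1 fell, with a median of 0.046 that was negative with equal totals (-0.24), quantile normalization (-0.22), no filter on low values (-0.16) and without knockout replicates 1 (-0.013) or 2 (-0.082). It was higher with a mean of at least 50 (0.16) and without wild-type replicates 1 (0.19) or 3 (0.24). TIMP1, an inhibitor of matrix proteases, fell from 3359, 6103 and 2950.3 normalized counts to 1336, 805 and 809 (log2 fold change -2.04, SE 0.33, limma adjusted p = 0.00790). SPP1, a secreted matrix protein, had a log2 fold change of 2.08 (limma adjusted p = 0.0362). It was called in only 1 of 6 fits without 1 library.

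**Figure D5:**
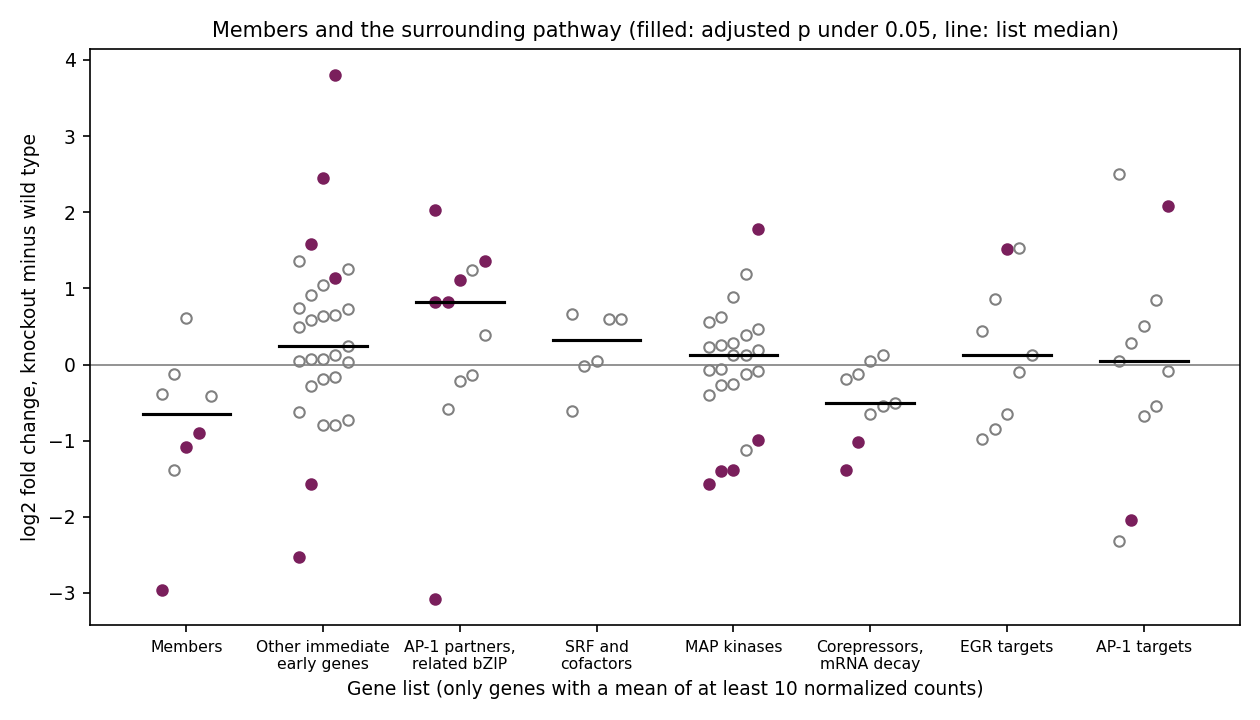
Log2 fold change (knockout minus wild type, y axis) of each tested gene among the members and the 7 surrounding lists, with a line at the median and filled symbols for an adjusted p under 0.05. The members' median is -0.66 and those of the lists run from -0.50 to 0.82.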

How the data were processed

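RNA was sequenced from 3 wild-type and 3 STK25 knockout cardiomyocyte cultures. Per the labels' protocols, RNA was column-purified and DNase-treated, and the Clontech Ultra Low v4 and NexteraXT kits were used for cDNA and libraries. The submitters' processing notes list bcl2fastq 2.19, kallisto 0.44.0, DESeq2 1.28.1 and GRCh38. Annotation and use of strand are not given in the sources used here. The deposited values are a signal that the authors' table calls normalized counts: 100% were whole multiples of 1 step per library (within 0.001), so whole reads were recovered for count tests. These reads may be estimated counts that were rounded.

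All 15536 genes with a mean of at least 10 were fitted with limma 3.58.1 (R 4.3.3) on log2(value + 1) over 6 libraries, with a trend, without covariates. The Benjamini-Hochberg adjustment covered all of them, and the threshold was 0.05. The added 1 shrinks fold changes of low genes. The limma value for EGR1 (-2.97) was nevertheless larger in size than those of edgeR (-2.77) and DESeq2 (-2.77). Recovered reads were also tested with edgeR 4.0.16 and with DESeq2 1.42.0. Fits were tested on simulated data. Every pair of replicates differed beyond sampling noise (at least 20.1 for chi-square over its degrees of freedom).

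The members and lists were chosen with earlier results of these data known. Named genes were the members, STK25, up to 4 called genes per list and direction, and the 5 genes most correlated with EGR1. JUND, HOOK2, ERCC1, MYL7 and TDGF1 were named after their values were seen. 1 called gene of the lists is not reported here. Gene models came from GENCODE 29 and promoters from RefSeq on GRCh38.p14. Figures were drawn with matplotlib 3.10.9.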

Additional observations from a re-analysis of the deposited data

How the results depend on the processing

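In each of the 19 alternatives EGR1, JUN, ATF3, FOS, FOSB and FOSL2 kept negative fold changes and JUNB a positive one. EGR1 was past the threshold in 16, ATF3 in 15, JUN in 14 and JUNB in 2. FOSL1 turned positive with quantile normalization (0.014), without the pair of libraries that stood apart, an alternative chosen after seeing the data (0.16), and without wild-type replicate 2 or knockout replicate 3 (0.20 each), and ran down to -0.41 when 1 library was left out. Members called lower numbered 3 in the reported fit, from 0 to 3 when 1 library was left out (0 without wild-type replicates 1 or 3 or knockout replicate 3), and 1 with the replicate block, which was EGR1 (limma adjusted p = 0.0487). Members called higher numbered 0, and 1 with DESeq2 or without the pair that stood apart. The median of the members, -0.66, was -0.90 with a mean of at least 50, which drops FOSL1, -0.94 with equal totals, and between -0.87 and -0.60 when 1 library was left out. Genes called among all tested, 1982, became 798 with the replicate block, 3210 with DESeq2, 4706 without the pair that stood apart, and between 792 and 2192 when 1 library was left out (wild-type replicate 1 gave 792 and replicate 3 gave 911, while knockout replicate 2 gave 1270 and replicate 3 gave 963). Genes called over the 7 lists, 22, became 7 with the replicate block, 39 without the pair that stood apart and between 7 and 20 when 1 library was left out. The mean correlation among members within genotypes, -0.079, was 0.16 with equal totals and from -0.13 to 0.015 when 1 library was left out. With equal totals the all-gene median was -0.27 in place of 0.0052, and 27.4% of the called genes (549 against 1457) were higher in place of 46.8%. Deviations of same-numbered libraries correlated at -0.235, -0.400 and 0.169. With 3 libraries per genotype, of which 1 in each stood apart, these values cannot decide whether the numbers pair the samples. The cause of these shifts was not tested. EGR2, EGR3 and the EGR1 values in the knockout are limited by depth, at 29 reads or fewer. FOSB in the knockout, at 17, 23 and 51 reads, and FOSL1, at 14 to 52 reads per library, were also low.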

Other observations

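The 3′ untranslated regions of the members were searched for ATTTA, the core of the AU-rich elements by which short-lived mRNAs are known to be marked for decay, in the longest protein-coding transcript of GENCODE 29. FOS held 5 in 809 bases, JUNB 2 in 503, JUN 3 in 1290 and ATF3 3 in 1225, while EGR1 held 1 in 1237. Over 14245 tested genes with such a region the median was 1.62 per kilobase. Above it were FOS (6.18), JUNB (3.98), ATF3 (2.45), JUN (2.33), FOSL2 (1.85) and EGR2 (1.65), the last 2 by little. Below it were FOSL1 (1.495), FOSB (1.38), EGR3 (1.065) and EGR1 (0.808). At least 3 ATTTA were found in 6 of the 10 members (EGR3, FOS, FOSB, FOSL2, JUN and ATF3) and in 45.5% of the tested genes.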
